A study of Drosophila ananassae with 22 samples.

Results

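The change of promoter activity between 6-10 hr and 10-13 hr after egg laying was followed in *Drosophila ananassae* embryos, in the hours named here for the onset of organ formation. The collections of 10-11, 11-12 and 12-13 hr were set against those of 6-7, 8-9 and 9-10 hr, which makes 6 of the 22 collections of the series. A transcription start site cluster (TSC), the group of neighboring start sites that make up a promoter, was included where it reached at least 10 RPM (reads scaled to a common total in each collection) in any of the 6 collections. This held for 8921 of 27105 TSCs, and for 6085 of the 8758 genes of the gene table. The lowest maximum inside the threshold was 10.1 RPM for TSCs and 10.0 RPM for genes, and the highest outside it was 9.96 RPM and 9.99 RPM.

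Whole, untreated embryos of the In(3R)A strain, the strain of the reference genome, were collected in windows of 1 hr and aged, and RNA was taken from each pool of embryos. RAMPAGE selects cDNAs complete up to the 5' cap and sequences them from both ends, which places a start site and ties it to its transcript. Every collection is 1 sample with no replicate, and the 3 neighboring hours of a window stood in for replicates. For a test of the windows as 2 groups, the p-values below therefore measure the scatter between hours, change within a window included. For a straight line over the hours, they set its slope against the scatter about that line. The 7-8 hr collection, with 579 reads, was left out.

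In fly embryos the middle hours of development follow gastrulation. Cells laid down in the germ layers then become nerve, muscle, gut, trachea and epidermis, the germ band shortens and the epidermis closes over the back. A gene can be read from several promoters, and a change of promoter can change the timing of its transcripts and the sequence at their 5' end. The identifiers in the tables could not be paired with gene names, so these hours could not be checked against genes that mark organs, and genes are described by position and profile. In whole embryos, fewer cells of a type and less RNA per cell cannot be told apart.

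The reads in TSCs numbered 4928295, 2482604 and 1471754 at 10-11, 11-12 and 12-13 hr, against 7349369, 4420426 and 10939122 at 6-7, 8-9 and 9-10 hr. The later collections were thus shallower, and 1 read was worth 0.203 to 0.680 RPM at 10-13 hr and 0.0914 to 0.226 RPM at 6-10 hr. After thinning all collections to the depth of the least deep, a line over the hours called 1638 TSCs as rising and 1072 as falling, against 1853 and 1324 without thinning. Of the 8921 TSCs, 6886 reached 10 RPM in both windows, 1252 at 10-13 hr only and 783 at 6-10 hr only. The last 2 groups passed only through the window in which they were high, so their direction was set by the filter. The line calls, the widths and the attribution are therefore also given for the 6886 TSCs that reached 10 RPM in both windows. TSCs listed for more than 1 gene gave the same values under each, so that the 8921 TSCs were 8819 distinct regions, 97 of them listed more than once.

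Many promoters were more active at 10-13 hr and many less active. The mean at 10-13 hr was over 2-fold higher in 1877 TSCs and over 2-fold lower in 1106, on the log2(RPM + 1) scale used for all differences here. It was over 8-fold higher in 58 TSCs and over 8-fold lower in 34. All counts in this paragraph include the 1252 TSCs that reached 10 RPM at 10-13 hr only and the 783 at 6-10 hr only. The direction of these was set by the filter, so the excess of large rises is not a result about the promoters. The median log2 difference over all TSCs was -0.06, with quartiles of -0.59 and 0.74. TMM scaling moved that median by -0.09, and the line over the hours then called 1728 TSCs rising and 1751 falling. In 1628 TSCs, 18.2% of those tested, the 3 values at 10-13 hr lay above all 3 at 6-10 hr, and in 1760 TSCs (19.7%) they lay below. Among genes, 1024 (16.8%) lay above and 1279 (21%) below.

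As 2 groups of 3 hours, the windows did not differ for any single promoter after adjustment. Limma called 0 TSCs higher and 0 lower at an adjusted p of 0.05 (0% of 8921), with a lowest adjusted p of 0.0907. At an unadjusted p under 0.05 there were 2587 TSCs (29.0%), 1444 of them higher at 10-13 hr and 1143 lower. Of the 6085 genes, 0 were called (0% in each direction), with 1767 at an unadjusted p under 0.05. On reads recovered from the RPM values, edgeR's quasi-likelihood test also called 0 TSCs and 0 genes, whereas DESeq2 called 995 TSCs higher and 537 lower, and 679 genes higher and 322 lower. Without the 9-10 hr collection limma called 689 TSCs higher and 218 lower, and 496 genes higher and 165 lower.

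**Figure D1:**
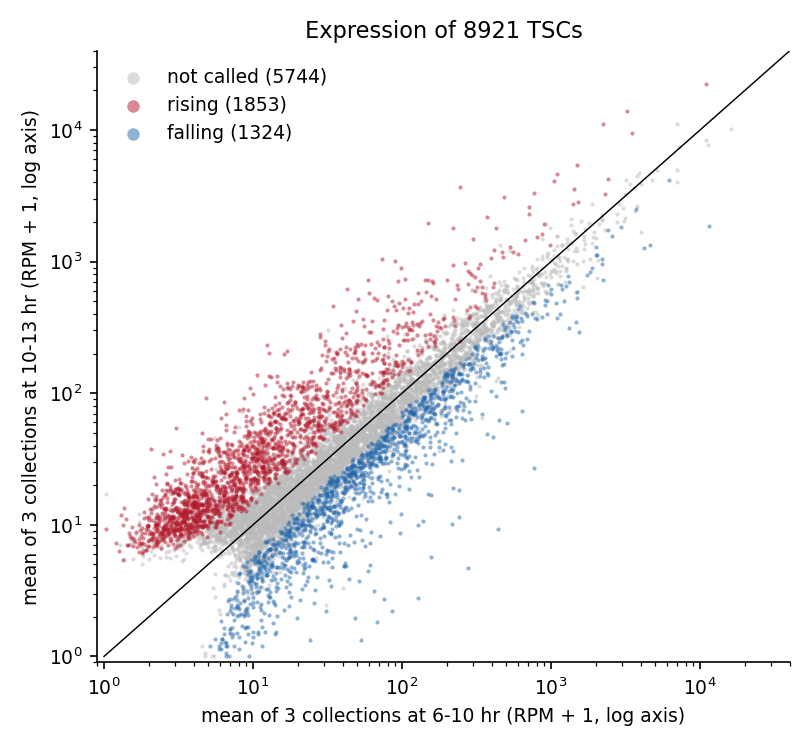
Mean expression of each of the 8921 TSCs at 10-13 hr (vertical axis) and at 6-10 hr (horizontal axis), in RPM + 1 on log axes. Red points rise and blue points fall along a line over the hours, gray points were not called, and the black diagonal marks equal levels. The 1853 rising TSCs spread upward from low levels, and the 1324 falling TSCs lie under the diagonal at all levels.

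A straight line through the 6 collections, which uses their order, left less scatter. Limma called 1853 TSCs (20.8%) as rising and 1324 (14.8%) as falling with the hours, at an adjusted p of 0.05. The median slope was 0.53 log2 units per hour among rising TSCs and -0.34 among falling TSCs, against a median of -0.01 over all TSCs. Of the rising calls 767 were of TSCs that reached 10 RPM at 10-13 hr only, and of the falling calls 359 were of TSCs that reached it at 6-10 hr only. Among the 6886 TSCs at 10 RPM in both windows, 1086 (15.8%) rose and 965 (14.0%) fell. Of 6085 genes, 1197 (19.7%) rose and 974 (16%) fell. EdgeR called 1779 TSCs rising and 1383 falling with the same line, and 3004 of limma's 3177 calls were among them in the same direction. The earliest collection carried much of this: without 6-7 hr the line called 883 TSCs rising and 537 falling, and 682 genes rising and 383 falling. Without 6-7 hr, 1274 of the 3177 TSC calls passed in the same direction and 0 changed direction. "Rising" and "falling" below mean these calls.

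The rising TSCs held 25.9% of the reads on average at 10-13 hr, against 8.88% at 6-10 hr. By hour their share was 3.56% at 6-7 hr, 9.18% at 8-9 hr, 13.9% at 9-10 hr, 19.2% at 10-11 hr, 25.9% at 11-12 hr and 32.8% at 12-13 hr. It grew at every step, and it was 17.7% at 10-13 hr against 6.11% at 6-10 hr without the 10 strongest of them. The falling TSCs held 9.74% of the reads at 10-13 hr and 21.4% at 6-10 hr, and their share was 29.6% at 6-7 hr and 7.72% at 12-13 hr. These TSCs were chosen on the same 6 collections, so the shares describe them and test nothing.

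Outside the 6 collections the sets had different histories. The median of the rising TSCs was 0.600 RPM at 0-3 hr, 2.26 RPM at 3-6 hr, 8.01 RPM at 6-10 hr and 27.9 RPM at 10-13 hr, and then 32.4, 26.6 and 24.0 RPM at 13-16, 16-19 and 19-22 hr. The median thus stayed near its level of 10-13 hr to the end of the series. Of the 1853 rising TSCs, 537 (29.0%) had their highest window at 10-13 hr, 478 (25.8%) at 13-16 hr and 434 (23.4%) at 19-22 hr. The reads were more concentrated than the median shows, since rising TSCs held 54.9% of all reads at 16-19 hr. A minority were also active at the start, as 358 (19.3%) averaged at least 10 RPM at 0-3 hr, when the RNA is largely maternal.

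The falling TSCs were mostly promoters of the early embryo. Their median was 42.0 RPM at 0-3 hr, 66.9 RPM at 3-6 hr, 50.2 RPM at 6-10 hr and 20.5 RPM at 10-13 hr, and 11.7, 7.69 and 10.1 RPM in the windows after it. For 702 of 1324 (53.0%) the highest window was 3-6 hr, and for 333 (25.2%) it was 0-3 hr. Few of them were gone at 10-13 hr, where 872 (65.9%) still averaged at least 10 RPM. The TSCs that were not called stayed near 26.0 RPM at 10-13 hr and 28.4 RPM at 6-10 hr, and their median was 12.6 RPM at 16-19 hr.

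**Figure D2:**
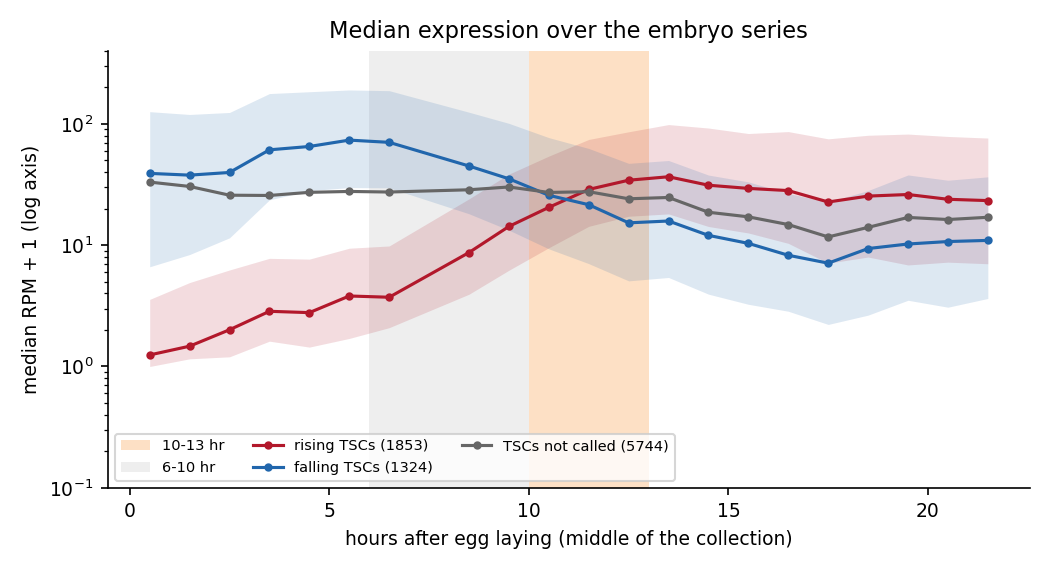
Median expression (RPM + 1, log axis) of rising, falling and uncalled TSCs in 21 collections, plotted at the middle of each collection in hours after egg laying. Bands span the quartiles of the rising and falling TSCs, and the shaded columns mark 10-13 hr and 6-10 hr. The rising median passes the falling median between 10-11 and 11-12 hr.

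The spread of the steps was smallest across the 10 hr boundary. The SD of the log2 step over all 8921 TSCs was 0.997 between 6-7 and 8-9 hr, which are 2 hr apart, 0.707 between 8-9 and 9-10 hr, 0.675 between 9-10 and 10-11 hr, 0.754 between 10-11 and 11-12 hr and 0.934 between 11-12 and 12-13 hr. It was also smallest there after thinning to 1 depth (0.778, with 0.812 to 1.08 at the other steps). In that order of steps, 866, 318, 216, 266 and 187 rising TSCs took their largest step, with median log2 steps of 1.02, 0.61, 0.48, 0.50 and 0.24. Of the falling TSCs 417, 144, 205, 233 and 325 took theirs, with median log2 steps of -0.58, -0.34, -0.43, -0.28 and -0.38. Among the steps of 1 hr, the median fall was thus largest across the boundary, and neither set took its largest steps mostly there. The same direction at all 5 steps was seen in 497 rising TSCs (26.8%) and 334 falling TSCs (25.2%).

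**Figure D3:**
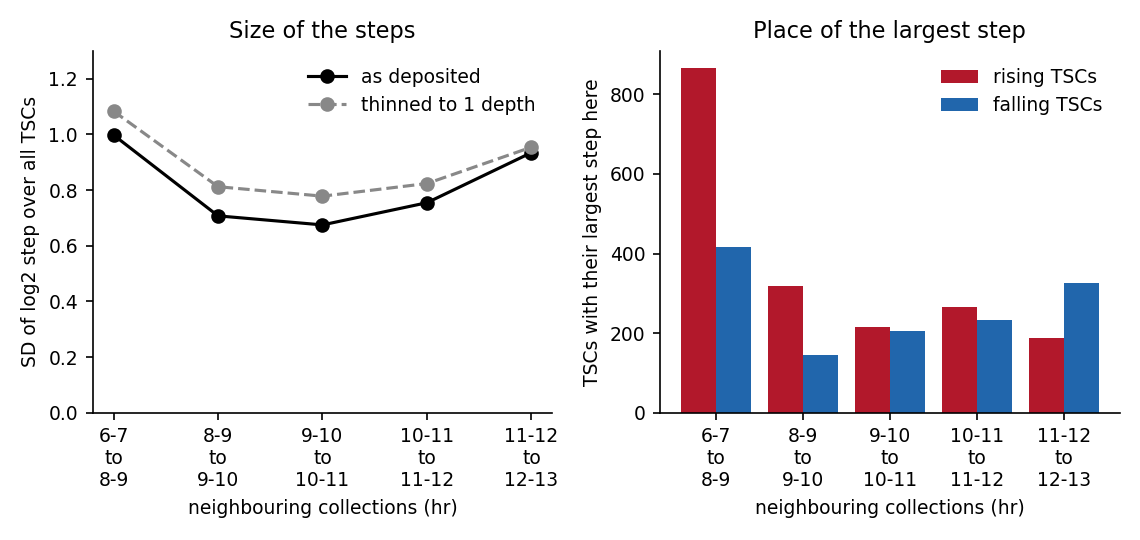
Left, SD over 8921 TSCs of the log2 step between neighboring collections, as deposited and after thinning to the depth of the least deep collection. Right, number of rising (red) and falling (blue) TSCs whose largest step lies between each pair. The step from 9-10 to 10-11 hr has the smallest SD, 0.675, and the first pair, which is 2 hr apart, holds the most largest steps.

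Few of the TSCs went between no detectable reads and activity. Counts of 3 reads or fewer in each collection were found for 33 TSCs at 10-13 hr, in libraries that were shallower, and for 4 TSCs at 6-10 hr. There were 6 TSCs with 0 reads in all 3 collections at 10-13 hr, and 0 such TSCs at 6-10 hr. The 3 reads that a count of 0 allows are 0.609 to 2.04 RPM at 10-13 hr and 0.274 to 0.679 RPM at 6-10 hr.

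The genes named here are those with the largest differences among genes on a called line whose windows did not overlap and whose higher window averaged at least 25 RPM, a rule met by 510 rising and 576 falling genes. The rule was written for the 2-group test and was applied to the line after that test had called none. FBgn0038339, named by its *D. melanogaster* identifier, had 612.9, 1242.5 and 1273.6 RPM at 10-11, 11-12 and 12-13 hr, against 57.1, 18.1 and 143.5 RPM at 6-7, 8-9 and 9-10 hr. All 3 later values lay above all earlier ones, and the gene averaged 1043.0 ± 372.8 RPM at 10-13 hr and 72.9 ± 64.2 RPM at 6-10 hr (SD, n = 3 collections each). Its log2 difference was 4.19 ± 0.69 (SE), with an adjusted p of 0.0835 by limma for the 2 windows and 0.0108 for the line. The rise ended with the window, as the gene averaged 159.6 RPM at 13-16 hr and 3.98 RPM at 16-19 hr.

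FBgn0053003 had 64.5, 154.7 and 47.1 RPM at 10-11, 11-12 and 12-13 hr, against 2.93, 2.43 and 5.91 RPM at 6-7, 8-9 and 9-10 hr. Its log2 difference was 4.12 ± 0.50 (SE), with an adjusted p by limma of 0.0729 for the windows and 0.0165 for the line. The gene reached 10 RPM at 10-13 hr only, so its direction was set by the filter and these p-values are no support for it. The values did not climb along a line. They formed a single pulse with its top at 11-12 hr, and the mean was 2.08 RPM at 13-16 hr. The reads of this gene were those of 1 TSC of 20 bp on the minus strand at scaffold_12943:3452858-3452877 (release 1.3).

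FBgn0085253 had 2.78, 0.789 and 0.663 RPM at 10-11, 11-12 and 12-13 hr, against 152.0, 74.96 and 22.0 RPM at 6-7, 8-9 and 9-10 hr. It fell at every step, and the last value is that of 1 read. The log2 difference was -4.85 ± 0.70 (SE), with an adjusted p by limma of 0.0835 for the windows and 0.000943 for the line, and the gene had averaged 89.7 RPM at 3-6 hr. FBgn0261245 had 0.993, 0.789 and 0.663 RPM at 10-11, 11-12 and 12-13 hr, against 142.3, 45.1 and 10.5 RPM at 6-7, 8-9 and 9-10 hr. Its log2 difference was -4.55 ± 0.83 (SE), with an adjusted p by limma of 0.0884 for the windows and 0.00128 for the line. Both genes reached 10 RPM at 6-10 hr only, so their direction was set by the filter and these p-values are no support for it. The later values of both genes are few reads, so the size depends on the pseudocount: with 5 RPM it was -3.46 for FBgn0085253 and -3.06 for FBgn0261245, and with 0.1 RPM -5.66 and -5.50. Without 6-7 hr, the highest collection, it was -4.22 for FBgn0085253 and -3.67 for FBgn0261245, and without 9-10 hr -5.59 and -5.49. Unlike FBgn0085253 it was low early, with 19.1 RPM at 3-6 hr, so that its activity was centered on 6-7 hr. Its reads were those of 1 TSC of 68 bp on the plus strand at scaffold_13334:976282-976349.

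**Figure D4:**
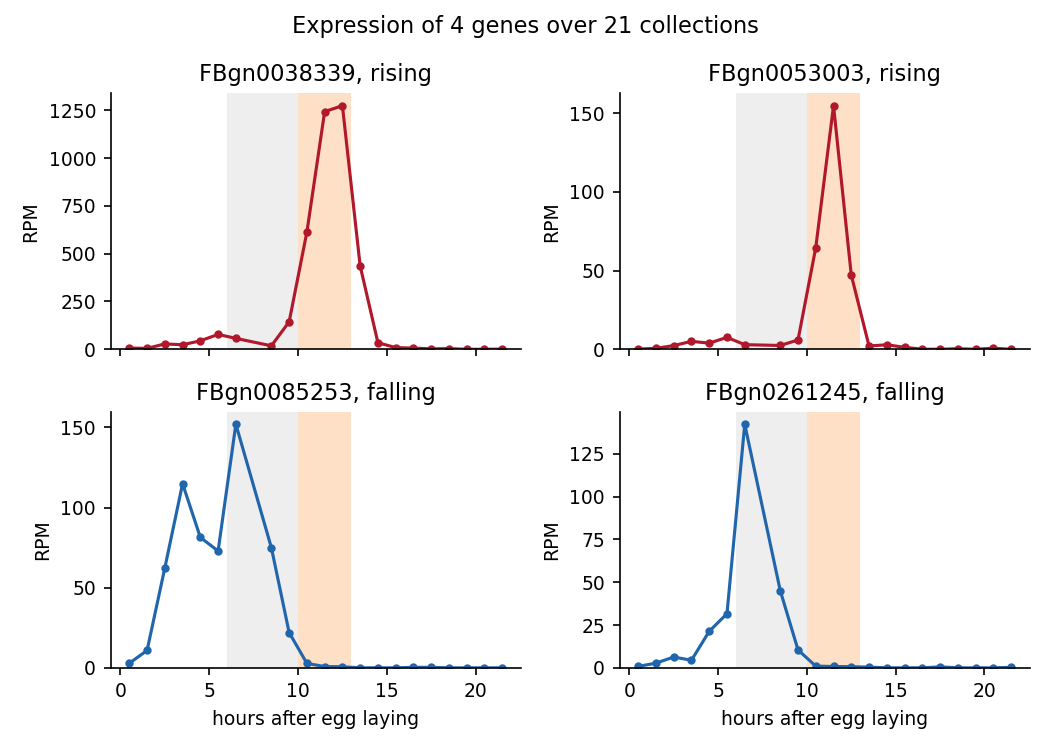
RPM of 4 genes in 21 collections, plotted at the middle of each collection, with 10-13 hr (orange) and 6-10 hr (gray) shaded. The rising genes FBgn0038339 and FBgn0053003 reach 1273.6 and 154.7 RPM and are low again after 14 hr, and the falling genes FBgn0085253 and FBgn0261245 are highest at 6-7 hr, with 152.0 and 142.3 RPM.

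The top of the lists, chosen for its excess at 10-13 hr or at 6-10 hr, favors genes that are highest there. Of the 10 rising genes with the largest differences, 4 were highest at 11-12 hr and 6 at 12-13 hr, and only 3 averaged more at 13-16 hr than at 10-13 hr. Of the 10 falling genes with the largest differences, all 10 were highest at 6-7 hr among the 6 collections, and 9 were higher still at 3-6 hr on average than at 6-10 hr. Over all rising TSCs, 1184 of 1853 (63.9%) had their highest window after 10-13 hr. The log2 differences of the sets of 10 ran from 3.26 to 4.19 and from -4.85 to -3.38.

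A window mean hides TSCs that peaked between its ends. In 864 TSCs (9.69%) a collection from 8-9 to 11-12 hr had at least 10 RPM and was at least 2-fold above both 6-7 hr and 12-13 hr, with 1 RPM added to each. The top lay at 8-9 hr in 92 of these, at 9-10 hr in 141, at 10-11 hr in 299 and at 11-12 hr in 332. A minimum at least 2-fold below both ends, where both ends had at least 10 RPM, was seen in 348 TSCs. That asks for 10 RPM at both ends, so the 864 and 348 are not counted on the same terms. Only 85 of the 864 were on the list of rising TSCs and 0 on that of falling TSCs. In 487 of them the values climbed at each step to the top and declined at each step after it, and 231 of these had the top at 10-11 hr.

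One of these pulses was high and brief. The TSC at scaffold_13337:6590778-6591152 (plus strand, 375 bp), attributed to a gene and chosen after its values were seen, had 1056.3 RPM at 6-7 hr, 4199.6 at 8-9 hr, 15716.8 at 9-10 hr, 28334.1 at 10-11 hr, 2602.5 at 11-12 hr and 2228.0 at 12-13 hr. Its level was over 10-fold lower 1 hr after its top. Each value is 1 collection, and this TSC also swung earlier, with 1710.6, 230.8 and 2091.6 RPM at 3-4, 4-5 and 5-6 hr. The means of the windows, 11054.9 ± 14965.5 RPM at 10-13 hr and 6990.9 ± 7718.6 RPM at 6-10 hr (SD, n = 3 collections each), did not differ beyond that spread, and the adjusted p by limma was 0.839 for the windows and 0.669 for the line. Another TSC that met the rule, at scaffold_13337:1613977-1614022 (plus strand, 46 bp), had 10.9, 60.9 and 139.2 RPM at 6-7, 8-9 and 9-10 hr. It then had 187.7, 145.8 and 13.6 RPM at 10-11, 11-12 and 12-13 hr. Its 2-fold fall rests on the 12-13 hr collection alone, the shallowest of those compared. The level was back at 123.9 RPM at 13-14 hr and 528.5 RPM at 14-15 hr, and its maximum was 881.1 RPM at 16-17 hr. A finished pulse is therefore not shown for this TSC, and a dip in 1 collection would give the same values.

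Rising promoters were narrower in the median, and also weaker. Their median width was 85 bp, against 107 bp in falling TSCs and 109 bp in TSCs not called, and 8.10% of them, against 2.57% and 2.58%, were at most 20 bp wide. Their level over the 6 collections was the lowest of the 3 sets, with a median of 18.4 RPM against 35.3 and 27.3 RPM. That mean includes 6-10 hr, where rising TSCs are low by selection. At 10-13 hr alone their median was 27.9 RPM, against 20.5 and 26.0 RPM. Among TSCs that averaged at least 25 RPM, the widths were 115.5, 118 and 118 bp. Among TSCs at 10 RPM in both windows they were 101, 114 and 112 bp, with 3.59%, 1.76% and 1.61% at most 20 bp wide. The most upstream TSC of the gene made up 71.1% of the attributed rising TSCs, 74.7% of the falling ones and 73.0% of those not called.

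TSCs without an attributed gene, the class that holds unannotated transcripts, made up 975 (10.9%) of the 8921. Of these, 263 (27.0%) rose and 133 (13.6%) fell, and of the 7946 attributed TSCs 1590 (20.0%) rose and 1191 (15.0%) fell. Among TSCs at 10 RPM in both windows, 120 of 612 unattributed ones (19.6%) rose and 78 (12.7%) fell, and of 6274 attributed ones 966 (15.4%) rose and 887 (14.1%) fell. Unattributed TSCs were weaker, with a median of 14.0 RPM against 28.1 RPM. The unattributed TSCs with the largest rises and falls under the naming rule, 3 each, had the following values. Among them RAMPAGEpeak_014357 and RAMPAGEpeak_022252 reached 10 RPM at 10-13 hr only, and RAMPAGEpeak_008218 at 6-10 hr only. Their direction was set by the filter, and their p-values are no support for it.

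RAMPAGEpeak_018648, at scaffold_13337:2544727-2544756 on the minus strand, had 83.4, 185.3 and 125.0 RPM at 10-11, 11-12 and 12-13 hr, against 0.272, 25.1 and 11.2 RPM at 6-7, 8-9 and 9-10 hr. Its slope was 1.15 ± 0.18 log2 units per hour (SE, adjusted p by limma 0.00371), and without 6-7 hr it was 0.85 with an adjusted p of 0.0603. RAMPAGEpeak_014357, at scaffold_13337:18848560-18848631 on the plus strand, had 21.7, 112.0 and 122.3 RPM at 10-11, 11-12 and 12-13 hr, against 3.81, 7.24 and 5.21 RPM at 6-7, 8-9 and 9-10 hr. Its slope was 0.87 ± 0.16 (SE, adjusted p by limma 0.00661). Both went on to far higher levels, with means of 2864.6 and 4012.4 RPM at 19-22 hr. The nearest TSC of an annotated gene was 5323 bp from RAMPAGEpeak_018648 and 1878 bp from RAMPAGEpeak_014357, and averaged 1.66 and 1.06 RPM at 10-13 hr. RAMPAGEpeak_022252, at scaffold_13266:14603447-14603478 on the plus strand, was a pulse instead, with 16.2, 73.7 and 10.9 RPM at 10-11, 11-12 and 12-13 hr, against 0.953, 1.13 and 2.38 RPM at 6-7, 8-9 and 9-10 hr. Its slope of 0.74 ± 0.23 (SE, adjusted p by limma 0.0394) lost its call without any one of 6-7, 8-9, 10-11 or 11-12 hr, with adjusted p from 0.0573 to 0.116, with a pseudocount of 5 RPM (adjusted p 0.0695) and after thinning (adjusted p 0.0619). The nearest TSC of an annotated gene lay 1234 bp upstream of RAMPAGEpeak_022252 on the same strand. It was called rising, with means of 29.8 RPM at 10-13 hr and 10.7 RPM at 6-10 hr.

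RAMPAGEpeak_010772, at scaffold_12916:6984742-6984783 on the plus strand, had 25.0, 16.5 and 10.9 RPM at 10-11, 11-12 and 12-13 hr, against 478.3, 197.3 and 47.1 RPM at 6-7, 8-9 and 9-10 hr. RAMPAGEpeak_026066, at scaffold_13034:139809-139972 on the plus strand, had 31.1, 12.9 and 10.2 RPM at 10-11, 11-12 and 12-13 hr, against 465.3, 117.4 and 72.3 RPM at 6-7, 8-9 and 9-10 hr. Both fell at every step, with slopes of -0.95 ± 0.09 and -0.94 ± 0.06 (SE, adjusted p by limma 0.00106 and 0.000613), and both had been high at 3-6 hr, with means of 411.0 and 440.0 RPM. RAMPAGEpeak_026066 lay 34599 bp from the nearest TSC of an annotated gene. For RAMPAGEpeak_010772 the nearest lay 7711 bp away on the same strand. That TSC was not called and averaged 75.6 RPM at 10-13 hr and 189.9 RPM at 6-10 hr. RAMPAGEpeak_008218, at scaffold_12943:2484276-2484481 on the minus strand, had 2.84, 0.403 and 5.44 RPM at 10-11, 11-12 and 12-13 hr, against 67.2, 41.6 and 20.8 RPM at 6-7, 8-9 and 9-10 hr. It lay 235 bp from a TSC of the opposite strand that was not called and averaged 86.7 RPM at 10-13 hr and 107.4 RPM at 6-10 hr. Its slope of -0.85 ± 0.21 (SE, adjusted p by limma 0.0174) was -0.94 with an adjusted p of 0.102 without 6-7 hr.

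Within genes, the choice of promoter also moved. The share of each TSC was set against the other member TSCs of its gene for the 2268 TSCs of 962 genes with at least 2 of them. As 2 groups, limma called 0 shares (0% in each direction), with 427 at an unadjusted p under 0.05 and a lowest adjusted p of 0.0792, and without the 9-10 hr collection it called 58. EdgeR and DESeq2 were not applied to shares. Along the line 214 TSCs (9.44%) gained share and 210 (9.26%) lost it, in 222 genes. The 424 called shares became 80 without 6-7 hr, 238 without 8-9 hr and 272 without 11-12 hr. In 33 genes 1 TSC rose and another fell, and in 91 genes the strongest TSC was not the same in the 2 windows, of which 47 had a called change of share. Of the 734 genes with exactly 2 member TSCs, the upstream one gained share in 52 and lost it in 80.

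The 4 genes with the largest called changes of share whose windows did not overlap are given by position, with shares as percent of the reads of the gene's member TSCs. In the gene on scaffold_13337 both TSCs reached 10 RPM in both windows. In the others each TSC with a called share reached it only in the window where its level was higher. The filter thus favored the direction of those shares. In the plus-strand gene with TSCs at scaffold_13337:8386187-8386295 and, 6591 bp downstream, at scaffold_13337:8392887-8392965, the upstream TSC held 93.1, 97.0 and 98.6% at 10-11, 11-12 and 12-13 hr, against 16.6, 65.1 and 86.0% at 6-7, 8-9 and 9-10 hr. The upstream TSC rose to 197.7 RPM at 12-13 hr, against 39.2 RPM at 6-7 hr, while the downstream TSC fell to 2.72 RPM, against 196.9 RPM. The promoters thus exchanged places within these hours, with a log2 slope of the share of 1.35 ± 0.10 per hour (SE, adjusted p by limma 0.000636).

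In another plus-strand gene the exchange ran the other way. Its upstream TSC at scaffold_12916:9244836-9244973 held 8.85, 5.88 and 0% at 10-11, 11-12 and 12-13 hr, against 81.9, 50.0 and 25.6% at 6-7, 8-9 and 9-10 hr, and the TSC at scaffold_12916:9246799-9246938, 1825 bp downstream, took the rest. The slope of the upstream share was -1.17 ± 0.09 (SE, adjusted p by limma 0.000666). Both were weak promoters, and the 0% at 12-13 hr is a count of 0 reads, which allows up to 2.04 RPM in that collection.

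The remaining genes had more promoters. In a minus-strand gene on scaffold_12916 the most upstream TSC, at 15150904-15150919, held 61.4, 64.2 and 79.7% at 10-11, 11-12 and 12-13 hr, against 14.0, 32.7 and 42.4% at 6-7, 8-9 and 9-10 hr. The next, at 15146802-15146877, held 21.6, 4.48 and 0%, against 68.4, 58.2 and 38.0%, and the share of the third was not called. This second TSC was weak, with 3.86, 1.21 and 0 RPM, against 5.31, 12.9 and 8.87 RPM. Its own level was not called. The slopes of the first and second shares were 0.62 ± 0.09 and -1.09 ± 0.16 (SE, adjusted p by limma 0.00427 and 0.00518). In a minus-strand gene on scaffold_13117 the downstream promoters lost their share. The third TSC, at 3133874-3133972, held 0.212, 0 and 0% at 10-11, 11-12 and 12-13 hr, against 19.8, 2.00 and 0.466% at 6-7, 8-9 and 9-10 hr, with a slope of -1.20 ± 0.13 (SE, adjusted p by limma 0.00284). Its last TSC, at 3132812-3132914, held 0.370, 0.229 and 0% at 10-11, 11-12 and 12-13 hr, against 31.8, 6.45 and 1.45% at 6-7, 8-9 and 9-10 hr, with a slope of -1.33 ± 0.11 (SE, adjusted p by limma 0.000681). At 10-11, 11-12 and 12-13 hr these were few reads. The third TSC had 0.812, 0 and 0 RPM and the last 1.42, 1.21 and 0 RPM, where 3 reads are 0.609 to 2.04 RPM. The most upstream TSC of this gene, at 3140071-3140232, held 93.1, 88.4 and 88.2% at 10-11, 11-12 and 12-13 hr, against 41.0, 86.2 and 90.3% at 6-7, 8-9 and 9-10 hr, and its share was not called (adjusted p 0.0818). It rose to 385.3 RPM at 12-13 hr, against 23.7 RPM at 6-7 hr.

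**Figure D5:**
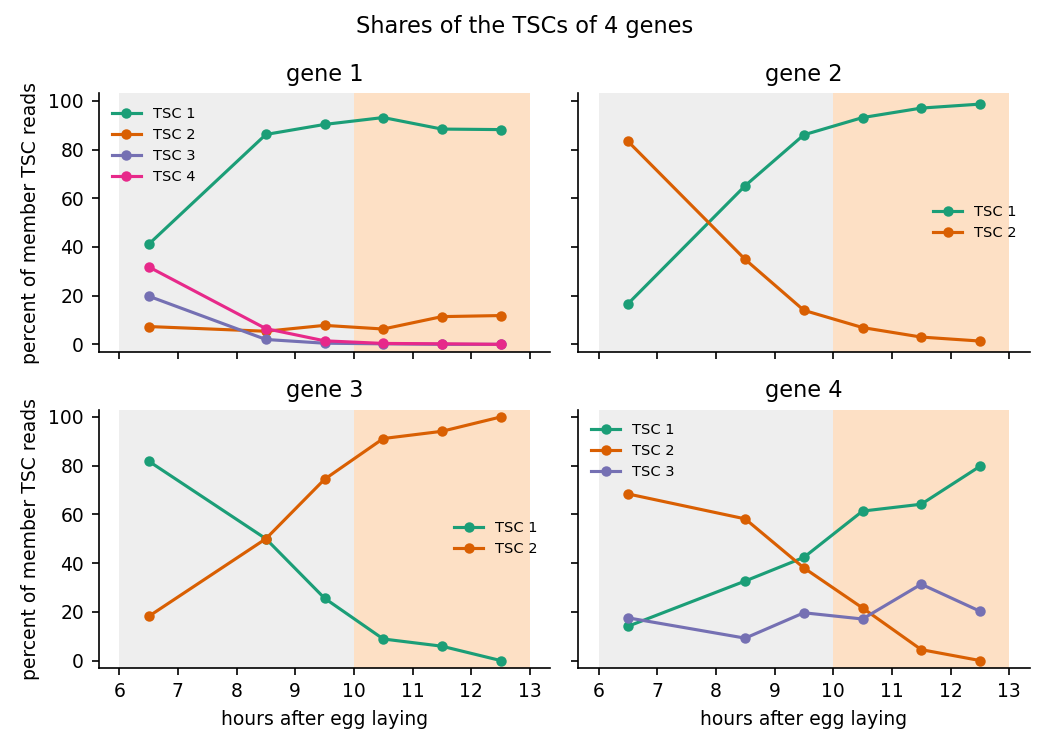
Share of each member TSC in the reads of its gene (percent) in the 6 collections, for the 4 genes with the largest called changes, with TSCs numbered from the upstream end and 10-13 hr (orange) and 6-10 hr (gray) shaded. Gene 1 lies on scaffold_13117, gene 2 on scaffold_13337 and genes 3 and 4 on scaffold_12916. In gene 2 the upstream TSC reaches 98.6% at 12-13 hr, and in gene 3 the downstream TSC reaches 100%.

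Rising genes often lay side by side. With 1 TSC taken for each gene, the strongest over the 6 collections, and each region counted once, 6566 genes could be ordered along the scaffolds, of which 1310 (20.0%) rose and 1019 (15.5%) fell. Of the neighbors of rising genes 34.9% also rose and 11.9% fell, while of the neighbors of falling genes 17.6% also fell and 15.4% rose. For neighbors over 10 kb apart the share of rising neighbors of rising genes was 33.2%. Neighboring genes can share a promoter region or be copies of one another, so these shares describe the order and carry no test. Runs of at least 3 rising genes in this order numbered 92, and runs of at least 3 falling genes numbered 24. The numbers of runs that the overall shares of 20.0% and 15.5% alone would give were not worked out. More runs are due for rising genes because more genes rose, and the 17.6% of falling neighbors was near the overall 15.5%. The genes include those whose direction was set by the filter. A run is unbroken among the 6566 genes only, and other genes, most of them under 10 RPM in the 6 collections, can lie inside it.

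The longest run was of 10 rising genes over 31.7 kb at scaffold_13337:20779008-20810674, a span that held 5 more genes with a TSC, all under 10 RPM in these hours. Summed over their main TSCs, they had 14972.7, 20565.9 and 22196.6 RPM at 10-11, 11-12 and 12-13 hr, against 507.7, 5453.1 and 9334.8 RPM at 6-7, 8-9 and 9-10 hr. The log2 differences ran from 1.60 to 3.00, and the adjusted p of the line by limma was at most 0.0157 for each. The last gene of the run was the strongest, with 13825.1 RPM at 10-13 hr and 3236.8 RPM at 6-10 hr. The weakest had 12.5 RPM at 10-13 hr and 1.62 RPM at 6-10 hr. The run held 1.92% of all reads at 10-13 hr and 0.510% at 6-10 hr, and it went on to 15.0% at 16-19 hr. Whether reads of near-identical copies were split between genes is not given in the sources used here, and levels within the run are uncertain to that extent.

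Rising runs were spread over the scaffolds, with 23 on scaffold_13266, 22 on scaffold_13337 and 17 on scaffold_13340. A run of 9 rising genes at scaffold_13337:10327034-10355734 summed to 700.0, 1241.8 and 1211.5 RPM at 10-11, 11-12 and 12-13 hr, against 96.6, 315.4 and 674.8 RPM at 6-7, 8-9 and 9-10 hr. A run of 8 at scaffold_13337:17977545-18020476 summed to 490.6, 481.3 and 479.7 RPM, against 9.53, 64.7 and 410.1 RPM, so that most of its level had been reached by 9-10 hr. Another run of 8, over 200.8 kb at scaffold_12929:729853-930613, summed to 390.8, 643.3 and 723.6 RPM, against 120.3, 203.6 and 394.2 RPM. The longest falling run had 5 genes over 155.6 kb at scaffold_13337:4152302-4307873, a span that held 4 more genes with a TSC, 3 of them under 10 RPM. The 5 genes summed to 60.9, 47.5 and 27.2 RPM at 10-11, 11-12 and 12-13 hr, against 2356.9, 342.7 and 167.1 RPM at 6-7, 8-9 and 9-10 hr. Most of the reads of this run within these hours were in the 6-7 hr collection.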

How the data were processed

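RAMPAGE was run on whole *D. ananassae* embryos in 22 collections of 1 hr. The authors mapped reads with STAR (version not given in the sources used here) to release 1.3, called TSCs on the pooled series, and attributed them to genes by paired reads. The deposited tables of TSCs and of genes hold RPM values, scaled by the authors within each collection. The deposited smoothed Z-scores were not used, since smoothing mixes neighboring hours. No column of other samples was found (0 columns).

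Dividing by the value of 1 read gave whole reads, within 0.1 read, for 100% of values. Features with at least 10 RPM in any of the 6 collections were tested by limma with a variance trend on log2(RPM + 1), with Benjamini-Hochberg adjustment at 0.05 over all of them, as 2 groups and, as an alternative, as a straight line over the hours. Shares were tested as log2 of TSC over the other member TSCs of the gene, with 1 RPM added to each. EdgeR and DESeq2 were run on the recovered reads. In simulated data with 8921 TSCs, the line called 70% of TSCs given a slope of 0.25 and 100% of those given 0.5, and 0.0803% of the others. The simulated counts scattered independently, with the same dispersion for all TSCs, about an exact line or a flat level. Real profiles also bend and peak, so these rates check the procedure and are not error rates of the calls above.

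Members and gene lists were chosen with earlier results of these data known. The items named were, among called features with windows that do not overlap and a higher mean of at least 25 RPM, the 2 genes with the largest rise and the 2 with the largest fall and 3 unattributed TSCs each way, and, with no such minimum, the 4 genes with the largest called change of share. The rule was to take 10 genes each way where identifiers could be paired with names, and they could not: the reference gene table matched none of them. The gene lists and marker lists therefore could not be used. TSC coordinates are counted from 1 on release 1.3. Alternatives were other pseudocounts, filters and scalings, no variance trend, each collection left out, and 7-8 hr added. Analyses used R 4.3.3 with limma 3.58.1, edgeR 4.0.16 and DESeq2 1.42.0, and Python 3.11.15 with pandas 2.3.3, numpy 2.4.6, matplotlib 3.10.9 and scipy 1.17.1.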

Additional observations from a re-analysis of the deposited data

Results flagged for a closer look

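The 7-8 hr collection entered only an alternative fit. In it, 21 of the 8921 TSCs had over 3 reads, the limit that a count of 0 allows. Of its 579 reads, 42.5% (95% exact binomial interval 38.4 to 46.6%) lay in rising TSCs and 6.22% (4.39 to 8.50%) in falling TSCs. The collections on either side of it had 3.56% at 6-7 hr and 9.18% at 8-9 hr in rising TSCs, and 29.6% and 19.5% in falling TSCs. The share in rising TSCs lay above that of 12-13 hr, 32.8%. The interval covers counting error only. Windows of 3 collections were too small to test a single collection as lying apart from its group.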

How the results depend on the processing

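With 6 single collections and 4 residual degrees of freedom, depth at 10-13 hr limits low values, and each call rests on the hours as replicates. Where the 2-group test called 0, no filter called 7 TSCs higher and 4 lower, median-of-ratios scaling 5 higher and 2 lower, and 7-8 hr added 1 TSC and 1 gene higher. DESeq2 called 995 TSCs higher and 537 lower, and 679 genes higher and 322 lower. The line over hours called 1853 TSCs rising and 1324 falling, 1197 genes rising and 974 falling, and 424 shares. With a collection left out, the 2-group counts ran from 0 to 689 TSCs higher, 0 to 218 TSCs lower, 0 to 496 genes higher, 0 to 165 genes lower and 0 to 58 shares, the highest of each without 9-10 hr (6-10 hr replicate 3). The line counts ran from 883 to 2032 TSCs rising, 537 to 1170 TSCs falling, 682 to 1173 genes rising, 383 to 879 genes falling and 80 to 607 shares. At least 25 RPM gave 1156 rising TSCs of 5897 tested and 245 shares of 974, a mean of at least 10 RPM gave 1219 rising TSCs of 6972, and no filter 1962 shares of 11972. The cause was not tested beyond these numbers tested. TMM scaling gave 1728 rising and 1751 falling TSCs and moved the median log2 difference by -0.09. Under all line alternatives, including thinning, edgeR and DESeq2, 0 of the 3177 TSC calls and 0 of the 2171 gene calls changed direction. For the items named, 8 of 278 alternatives of a line lost its call and 44 of 296 alternatives of a 2-group difference gained one, and none reversed. The line as a result of its own, its alternatives and the thinning were added after seeing the data. The alternatives for the gene lists were not run, since identifiers could not be paired with names. No paired analysis was possible because replicate numbers follow accession order and pair no samples.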

Other observations

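A set of TSCs went up and down between neighboring collections. At least 2-fold higher levels at both 9-10 and 11-12 hr than at each of 8-9, 10-11 and 12-13 hr, with 1 RPM added, were found in 22 TSCs, and the converse in 1. Of the 22, 15 lay on scaffold_3895 between bases 2551 and 15998, among 16 member TSCs of that scaffold, 0 of which were attributed to a gene. Summed over these 15, there were 620.3 RPM at 8-9 hr, 3121.5 at 9-10 hr, 541.2 at 10-11 hr, 4274.5 at 11-12 hr and 387.3 at 12-13 hr. Later the sum was 908.8 RPM at 13-14 hr, 387.9 at 14-15 hr, 1539.7 at 15-16 hr and 326.1 at 16-17 hr, and it was 1137.4 RPM at 19-20 hr, while 0-1 to 8-9 hr ran from 332.4 to 755.8 RPM. None of the TSCs of this scaffold was called rising or falling. The pattern was noticed in the data and was not tested further.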
